A study of Mus musculus with 163 samples.

Results

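Voltage-gated calcium and sodium channel genes were read in single hair cells of the mouse cochlea with and without the RNA-binding protein gene Rbm24. The members were the genes whose symbol starts with Cacn, those named Scn with a number and a or b, and the calcium-binding proteins Cabp1, Cabp2 and Cabp4. There were 43 of them among the 55291 genes of the table: 10 calcium channel alpha1 (pore) genes, 4 alpha2delta genes, 4 beta genes, 8 gamma genes, 10 sodium channel alpha (pore) genes, 4 sodium channel beta genes and 3 calcium-binding protein genes. The series held 163 tdTomato-positive cells from postnatal day 7, dissociated with enzymes and picked by hand. Outer hair cells (OHCs) numbered 43 in controls (Ctrl) and 56 in mutants (Exp), and inner hair cells (IHCs) 38 and 26; how a cell was assigned to either type is not given in the sources used here. Wherever 4 values stand together, OHCs come before IHCs and, within each type, controls before mutants. Controls were Atoh1P2A-Tdtomato/+, and mutants were Atoh1P2A-Cre/P2A-Tdtomato/+; Rbm24flox/flox per the genotype label, where the design text has the same alleles without the last wild-type sign. All cells thus carried a tdTomato insertion at Atoh1, and the mutants had Cre at Atoh1, a factor that hair cells need to form, in addition to the floxed Rbm24 alleles. No label gives strain, sex or animal, so each group was 1 sample, its cells were not replicates, and no test was run. Cre, the Atoh1 alleles and the loss of Rbm24 cannot be told apart in these groups.

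A voltage-gated calcium channel is built around an alpha1 pore, which an intracellular beta subunit and an extracellular alpha2delta subunit help to reach the membrane and to open. In hair cells the CaV1.3 pore, encoded by Cacna1d, carries most of the calcium current that releases transmitter at the ribbon synapse, and EF-hand proteins of the CaBP family slow its inactivation. Sodium channels have an alpha pore with beta subunits, and immature hair cells, which fire action potentials before hearing begins, have a sodium current that is lost later.

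Total counts per cell ranged from 5467115 to 18072166, and all levels are given as counts per 1000000 (CPM) of the counts summed over a group. The median cell had 9088352, 12763907, 8673120 and 14186061 counts, so mutant cells were sequenced more deeply than controls. Atoh1 itself was at 28.4, 98.1, 83.9 and 138 CPM. Rbm24 was at 315 CPM in Ctrl OHC and 0.212 CPM in Exp OHC, and at 431 and 1.51 CPM in Ctrl IHC and Exp IHC. Prestin (Slc26a5), the OHC motor protein, was at 10 CPM or more in 41 of 43 Ctrl OHCs and 23 of 56 Exp OHCs, and Slc17a8, the glutamate transporter of IHC synapses, in 38 of 38 Ctrl IHCs and 25 of 26 Exp IHCs. Markers went against the label in 9 Ctrl OHCs, of which 7 had Slc17a8 at 10 CPM or more and 2 had Slc26a5 under 10 CPM, and in 1 Exp IHC. The prestin rule was applied to Ctrl OHCs only, so leaving out such cells takes 9 Ctrl OHCs and 0 Exp OHCs. Y-linked transcripts without Xist (Y-positive cells) were found in 32 of 43, 16 of 56, 26 of 38 and 7 of 26 cells, and Xist alone (Xist-positive cells) in 10, 37, 12 and 19, so the sexes were mixed differently in the genotypes. The 7 supporting cell genes looked at summed to 52.9, 29.8, 73.7 and 15.0 CPM, and the highest cells had 385, 327, 824 and 58.7 CPM of them. A pseudogene, Gm15772, was under 40 CPM in 25, 16, 23 and 7 cells (Gm15772-low) and at 40 CPM or more in the rest (Gm15772-high). The 4 sets are not separate checks: every Gm15772-low cell was Y-positive and every Xist-positive cell Gm15772-high, and in mutants the Y-positive and Gm15772-low cells were the same 16 OHCs and 7 IHCs. Values within the sets are given beside many of the ratios that they move past or under 2-fold or across 0, and a ratio printed without them is not thereby stable.

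Of the 43 genes, 29 reached 1 CPM in at least 1 group and 15 reached 10 CPM. The 14 that stayed under 1 CPM everywhere were the calcium pores Cacna1f, Cacna1g, Cacna1h and Cacna1i, the gamma genes Cacng1, Cacng3, Cacng6, Cacng7 and Cacng8, and the sodium pores Scn1a, Scn3a, Scn7a, Scn9a and Scn10a. Their highest level was 0.809 CPM, for Cacna1g in Exp IHC, and 6 of them had 0 counts in all cells. A sum of 0 was set to 3 counts, which equal 0.00751, 0.00416, 0.00861 and 0.00822 CPM. At 10 CPM or more there were 12, 13, 9 and 13 members in the 4 groups. Each family had 2 or 3 members at that level.

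**Figure D1:**
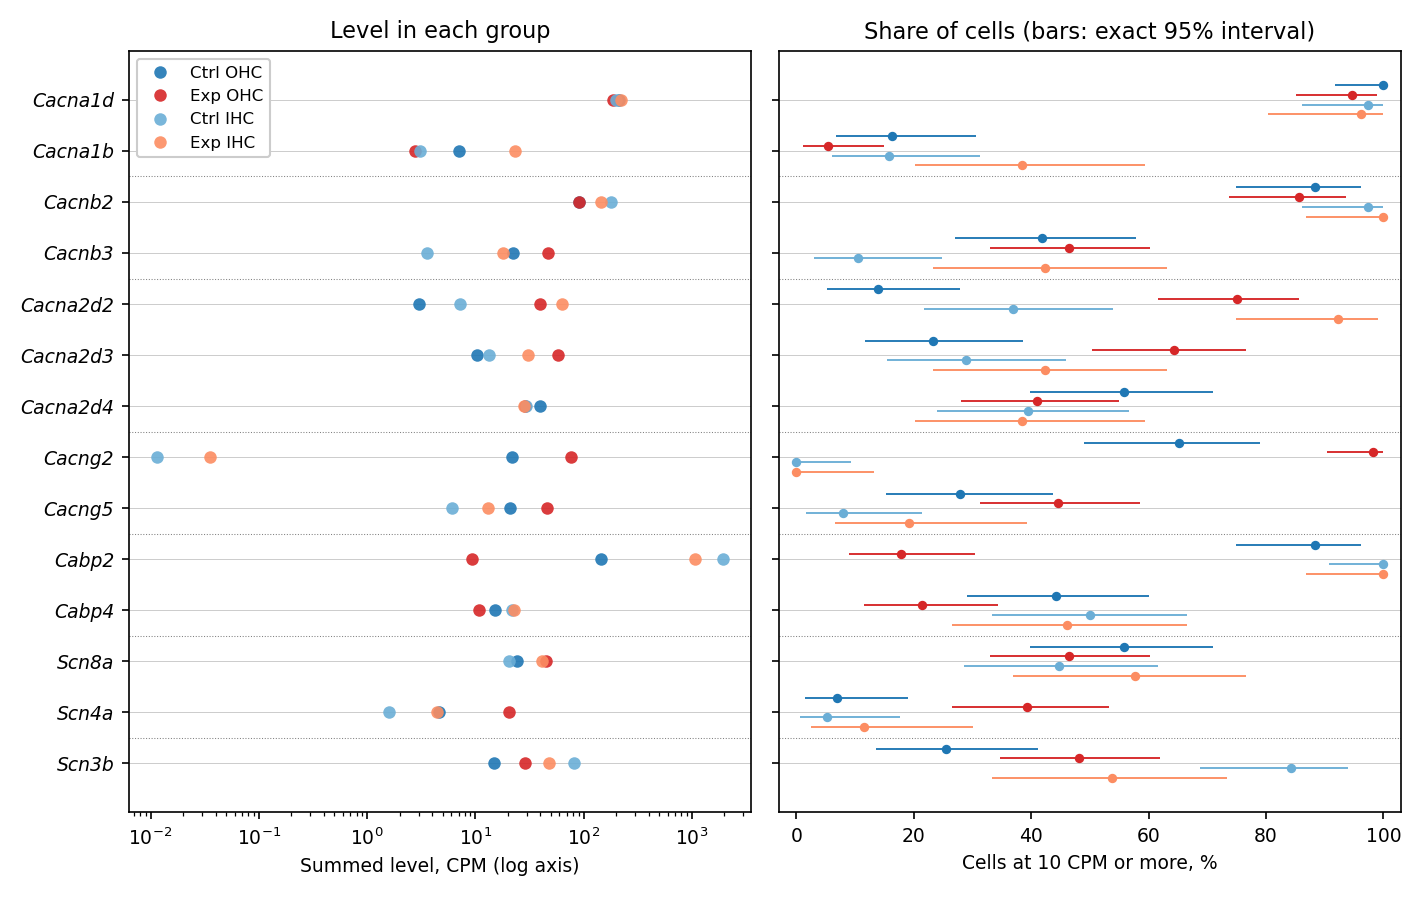
Left, summed level (CPM, log axis) of 14 members at 10 CPM or more in a group; each point is a group. Right, share of cells at 10 CPM or more, with exact 95% binomial intervals. Cacna1d lies between 186 and 220.0 CPM in all groups, while Cabp2 spans 9.24 to 1937 CPM and Cacng2 is close to 0 in both IHC groups.

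A member was counted as lower or higher when its mean over both groups was 1 CPM or more and its levels differed by over 2-fold. In Exp OHC against Ctrl OHC, 22 members could be compared, of which 4 were lower (among them Cabp2, Cacna1b, Scn2b) and 8 higher (Cacna1e, Cacna2d2, Cacna2d3, Cacnb1, Cacnb3, Cacng2, Cacng5, Scn4a). Of all 14588 genes compared, 13.1% were lower and 18.4% higher by the same rule, 31.5% in all. The median log2 ratio was 0.84 over the members and 0.06 over all genes. In Gm15772-high cells 5 members were higher.

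In Exp IHC against Ctrl IHC, 23 members could be compared, of which 2 were lower (Cabp1, Cacng4) and 13 higher (among them Cacna1b, Cacna1c, Cacna2d1, Cacna2d2, Cacna2d3, Cacnb3, Cacnb4, Cacng5, Scn2a, Scn4a, Scn4b, Scn8a). Among all genes 11.7% were lower and 18.8% higher, 30.5% in all, and the medians were 1.07 and 0.11. The higher count rested partly on single cells: it was 7 without the highest cell of each group, and 6 without the 14 Exp IHCs that had the most neuron transcripts. It was 7 in Y-positive and 6 in Gm15772-low cells, and the lower count was 4 in Xist-positive and 6 in Gm15772-high cells. Several of the 13 were genes of 1 to 10 CPM that came from a few cells, as described further on.

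Between control cell types, 24 members could be compared, and 6 were lower in OHCs (Cabp1, Cabp2, Cacna2d2, Cacnb2, Cacng4, Scn3b) and 10 higher (among them Cacna1b, Cacna1c, Cacnb1, Cacnb3, Cacng2, Cacng5, Scn11a, Scn2b, Scn4a). The shares of all genes were 13.4% and 15.3%, 28.6% in all, and the medians 0.38 and 0.04. The higher count was 6 with each group's highest cell left out and 6 in Gm15772-high cells. The Scn11a ratio of 3.36 was 0.67 without the cells whose markers went against the label. It was 0.22 in Y-positive and 0.36 in Gm15772-low cells, but 8.14 in Xist-positive and 7.66 in Gm15772-high cells. The Cacna1c ratio of 1.79 was 0.16 in Gm15772-high and 8.12 in Gm15772-low cells. Between mutant cell types, 25 could be compared, with 8 lower in OHCs (among them Cabp2, Cabp4, Cacna1b, Cacna2d1, Cacnb4, Scn2a, Scn4b) and 8 higher (Cacna1a, Cacna1e, Cacnb1, Cacnb3, Cacng2, Cacng5, Scn11a, Scn4a), against 14.5% and 14.0% of all genes, 28.5% in all. The medians were -0.10 over the members and 0.0014 over all genes. The lower count was 4 without the highest cell of each group, and 2 in the Y-positive cells, which are here the Gm15772-low cells. These comparisons share groups with the genotype comparisons, so each is given by its own values.

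**Figure D2:**
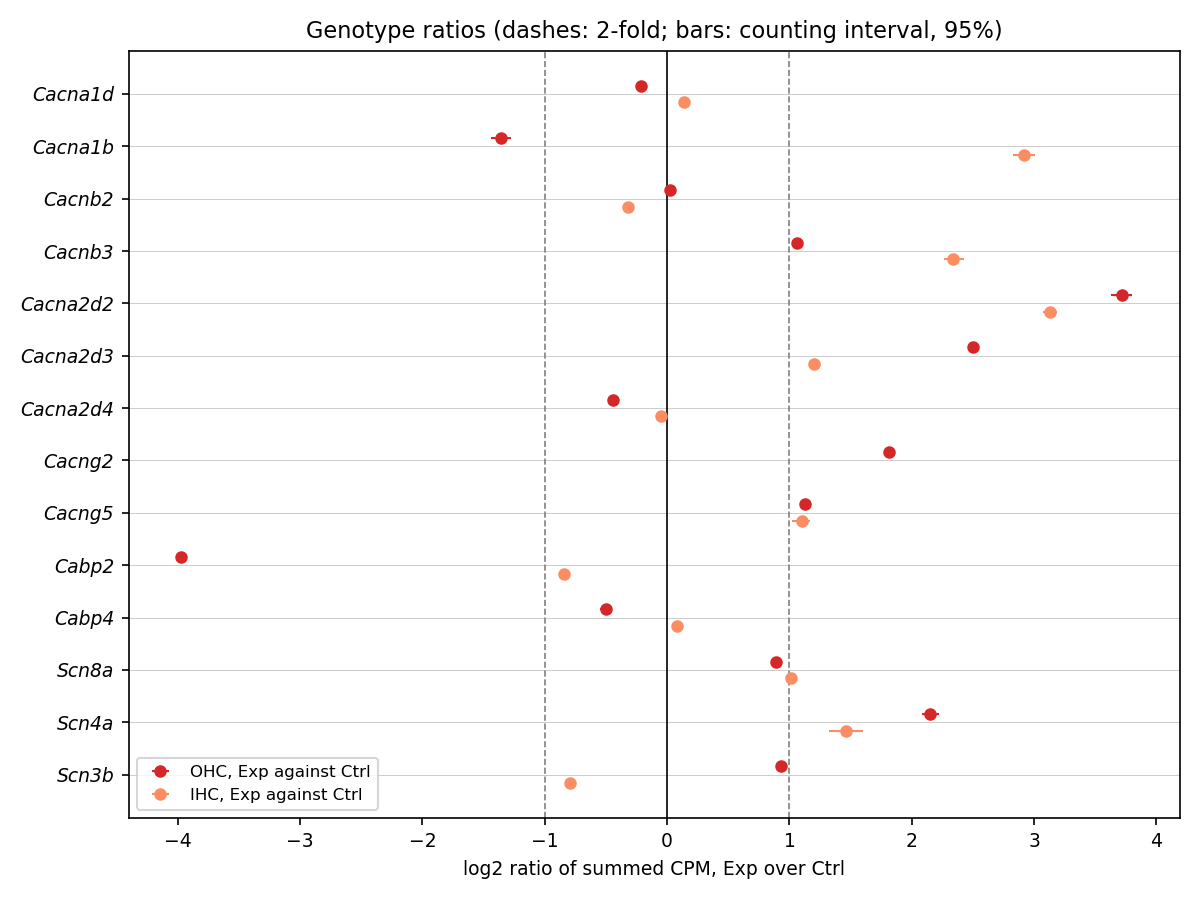
The log2 ratio of summed CPM in mutant over control cells is plotted for 14 members in OHCs and IHCs; bars are 95% counting intervals and dashed lines mark 2-fold. Cacna2d2 is highest in both cell types (3.72 and 3.13), Cabp2 lowest in OHCs (-3.97), and Cacna1b lies on opposite sides (-1.36 and 2.92); Cacng2 is not drawn for IHCs, where it was under 1 CPM.

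The promoters of 4 genes past 2-fold in OHCs are printed: Cabp2, which was far lower in Exp OHC, and Cacna2d2, Cacna2d3 and Cacng2, which were higher. They were picked for those ratios and for their differing base composition, so they do not stand for the members. Each is the RefSeq stretch of GRCm38.p6 from 250 bases before to 50 bases after the annotated start, 5′ to 3′ on the gene's strand, with capitals on the E-box CAGCTG, or CAGATG read on both strands. The RefSeq start lies 910, 268 and 748 bases inside the GENCODE gene for Cabp2, Cacna2d2 and Cacng2 and is the same in both annotations for Cacna2d3, so these stretches depend on the annotation.
Cabp2 (chr19:4082238-4082537, plus strand): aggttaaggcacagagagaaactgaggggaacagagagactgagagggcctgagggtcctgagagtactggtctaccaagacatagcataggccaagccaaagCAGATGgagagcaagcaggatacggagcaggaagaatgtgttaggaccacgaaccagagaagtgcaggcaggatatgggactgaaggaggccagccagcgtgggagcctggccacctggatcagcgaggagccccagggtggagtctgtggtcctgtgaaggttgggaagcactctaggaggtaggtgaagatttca
Cacna2d2 (chr9:107399630-107399929, plus strand): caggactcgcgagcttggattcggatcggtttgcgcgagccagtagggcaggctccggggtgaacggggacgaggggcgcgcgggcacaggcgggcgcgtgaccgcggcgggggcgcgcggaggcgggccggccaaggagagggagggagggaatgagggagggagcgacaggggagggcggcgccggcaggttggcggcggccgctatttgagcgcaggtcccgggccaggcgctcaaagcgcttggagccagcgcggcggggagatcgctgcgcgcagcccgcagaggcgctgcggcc
Cacna2d3 (chr14:29721815-29722114, minus strand): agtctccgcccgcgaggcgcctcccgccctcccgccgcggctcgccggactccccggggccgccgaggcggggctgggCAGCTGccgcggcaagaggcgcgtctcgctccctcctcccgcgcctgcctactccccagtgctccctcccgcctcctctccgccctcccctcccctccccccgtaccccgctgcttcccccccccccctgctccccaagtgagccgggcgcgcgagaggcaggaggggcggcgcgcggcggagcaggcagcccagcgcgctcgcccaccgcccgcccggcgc
Cacng2 (chr15:78119231-78119530, minus strand): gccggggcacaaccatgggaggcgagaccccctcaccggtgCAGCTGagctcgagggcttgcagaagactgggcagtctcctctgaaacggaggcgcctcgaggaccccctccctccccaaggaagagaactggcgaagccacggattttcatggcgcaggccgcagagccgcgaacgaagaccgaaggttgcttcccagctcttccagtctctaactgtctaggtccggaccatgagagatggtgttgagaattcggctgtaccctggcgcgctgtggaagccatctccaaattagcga
The Cabp2 promoter had 4 CpG pairs and 55.7% GC, against 43 and 75.7% for Cacna2d2, 41 and 81.3% for Cacna2d3 and 20 and 61.0% for Cacng2. Other members past 2-fold in OHCs did not keep to this split. Cacna1b and Scn2b, lower in Exp OHC, had 35 and 2 CpG pairs. Cacna1e, Cacnb1, Cacnb3, Cacng5 and Scn4a, higher there, had 11, 34, 7, 17 and 4. Both directions thus held promoters rich and poor in CpG. Over all 32851 promoters the median was 7 CpG pairs and 52.7% GC. A CAGCTG stood in 16.3% of all promoters and in 10 of the 32 members with an entry, and CAGATG in 17.2% and in 5. These letters are a description and show no binding.

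Cacna1d, the CaV1.3 pore (chr14:30039939-30491455, minus strand), was the main calcium pore in every group and was close in level across them. Its summed level was 215, 186, 199 and 220.0 CPM. Single cells ran from 17.7 over a median of 209.9 to 534 CPM in Ctrl OHC, and from 0 over 167 to 600.4 CPM in Exp OHC. In IHCs the lowest, median and highest cells were 0, 153 and 459 CPM in controls and 5.65, 213 and 452 CPM in mutants, so all 4 groups overlapped over most of their range. The log2 ratio of mutant over control was -0.21 (95% counting interval -0.22 to -0.20) in OHCs and 0.14 (0.13 to 0.16) in IHCs. The OHC ratio was 0.56 in Y-positive and -0.89 in Xist-positive cells, and that of IHCs 0.63 and -0.15, so neither has a direction that holds in both sets.

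Per kilobase of exon, Cacna1d held 92.9%, 93.4%, 94.9% and 86.1% of the alpha1 family's counts in the same order. The gene shares 589 exonic bases with Chdh on the opposite strand, which reached 42.8 CPM, and the strand setting of the counts is not given in the sources used here. The other pore at 10 CPM or more was Cacna1b (chr2:24603887-24763152, minus strand), which encodes the N-type CaV2.2 channel of neuronal terminals. It had 7.08 and 2.76 CPM in Ctrl and Exp OHC and 3.08 and 23.3 CPM in Ctrl and Exp IHC. The medians of single cells were 0, 0, 0 and 0.372 CPM and the highest cells 150.4, 94.9, 24.9 and 163 CPM.

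Cacna1b was thus found in few cells: 7 of 43, 3 of 56, 6 of 38 and 10 of 26 had it at 10 CPM or more. Mutants were lower in OHCs by a log2 ratio of -1.36 (-1.44 to -1.28) and higher in IHCs by 2.92 (2.83 to 3.01). Without the cells whose markers went against the label the OHC ratio was -0.46, while the IHC ratio was 2.38. In Exp OHC 1 cell gave 67.4% of the counts. Among controls the ratio of OHCs over IHCs was 1.20 with all cells, 0.30 without those against the label, 0.26 in Y-positive and 0.46 in Gm15772-low cells, and 0.94 with each group's highest cell left out. The summed level of neuron markers was also higher in mutants: the 12 genes of that list came to 480, 974, 816 and 1518 CPM, with 5, 8, 7 and 6 of them at 1 CPM or more and single cells at 56.8 to 1164, 326 to 1687, 451 to 1256 and 551 to 2875 CPM. Most of the gain came from the neurofilament genes Nefl, at 103, 292, 376 and 573 CPM, and Nefm, at 78.3, 351, 153 and 522 CPM. The gain was not confined to them: another gene of the list was at 0, 25.7, 2.37 and 41.6 CPM. Some markers of low level were lower in mutants: Tubb3 was at 0.248, 0.0111, 2.16 and 0.0329 CPM, and Mapt at 2.93, 0.0125, 0.516 and 0 CPM. Tubb3 was too low to be compared in OHCs, and Mapt in IHCs. By the rule above, 5 of the 9 compared were higher and 1 lower in mutant OHCs, and 2 of 6 higher and 1 lower in mutant IHCs. Prph was at 0 in all groups, and Slc17a7 in all but Ctrl IHC. The cells highest in these markers were 3 of 56 Exp OHCs and 14 of 26 Exp IHCs, with no control cell among them. Nefl and Nefm were at 10 CPM or more in 76.7% or more of cells in every group. Leaving out the highest cells thus trims mutants only and cannot tell neuron RNA from that of hair cells. Without the cells highest in these markers the IHC ratio of Cacna1b was 3.27.

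The beta subunit genes differed between the cell types in their make-up. Cacnb2 (chr2:14603088-14987908, plus strand), whose product is the main beta subunit of IHC calcium channels in mice, was at 90.0, 91.6, 180.2 and 145 CPM. The lowest, median and highest cells were 0.717, 68.2 and 237 CPM in Ctrl OHC, 0, 65.9 and 295 CPM in Exp OHC, 1.45, 154 and 427 CPM in Ctrl IHC, and 20.8, 136 and 296 CPM in Exp IHC. OHC cells were lower than IHC cells by the median, and their ranges overlapped widely.

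Mutant and control cells were close for Cacnb2, with log2 ratios of 0.02 (0.01 to 0.04) in OHCs and -0.32 (-0.33 to -0.30) in IHCs. The OHC ratio was 0.45 in Y-positive and -0.37 in Xist-positive cells. Between control cell types the ratio was at the 2-fold limit, with a counting interval of -1.02 to -0.98, and lay between -1.14 and -0.86 over the 4 sets of cells. The antisense gene Gm13269, at up to 146 CPM, shares 239 exonic bases with Cacnb2. Cacna1d and Cacnb2 were both at 10 CPM or more in 38 of 43, 45 of 56, 36 of 38 and 25 of 26 cells.

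Cacnb3 (chr15:98630840-98644529, plus strand), a beta subunit better known from brain and smooth muscle, was at 22.5, 47.0, 3.55 and 18.0 CPM. Single cells had medians of 1.60, 5.99, 0 and 0.512 CPM and reached 273, 228, 54.1 and 118 CPM. It was at 10 CPM or more in 41.9% (27.0 to 57.9, exact 95% interval), 46.4% (33.0 to 60.3), 10.5% (2.94 to 24.8) and 42.3% (23.4 to 63.1) of cells, so the shares of OHCs and IHCs were far apart in controls and close in mutants, where the summed level was still 2.61-fold higher in OHCs. The log2 ratio was 2.34 (2.26 to 2.43) in IHCs and 1.06 (1.03 to 1.10) in OHCs, where it was 0.03 in Xist-positive and 0.49 in Gm15772-high cells. In IHCs it lay between 0.96 and 2.54 over the 4 sets.

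Cacnb1, the beta subunit of skeletal muscle channels, was an OHC gene in these cells. It was at 10 CPM or more in 3 of 43 Ctrl OHCs and 15 of 56 Exp OHCs and in no IHC, where the groups held 1 count and 0 counts. Its level was 3.73 CPM in Ctrl OHC and 8.73 CPM in Exp OHC, a log2 ratio of 1.23 (1.14 to 1.31), which was 0.95 without the cells whose markers went against the label and 0.99 in Gm15772-low cells. Among mutants it was at least 1061-fold higher in OHCs than in IHCs, with the IHC sum set to the floor of 3 counts. Cacnb4, a brain beta subunit, was at 0.751, 0.128, 0.419 and 1.88 CPM, and 1 cell gave 62.2% or more of its counts in each group. Per kilobase, Cacnb2 held 51.1% and Cacnb3 42.1% of the beta family in Ctrl OHC, against 93.6% and 6.09% in Ctrl IHC. In Exp IHC the shares were 69.9% and 28.7%. In Exp OHC they were 33.6% and 57.0%, and with the longest transcript as length 47.9% and 45.3%, so the order of the pair there depends on the length used.

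Among the alpha2delta genes, Cacna2d2 and Cacna2d3 were higher in mutants of both cell types, and Cacna2d4 was not. Cacna2d2 (chr9:107399612-107529343, plus strand) encodes the subunit that mouse IHCs need for a normal calcium current. It was at 3.02 CPM in Ctrl OHC and 39.7 CPM in Exp OHC, and at 7.30 CPM in Ctrl IHC and 63.8 CPM in Exp IHC. The lowest, median and highest cells were 0, 0 and 29.3 CPM in Ctrl OHC, 0, 31.5 and 151 CPM in Exp OHC, 0, 4.95 and 34.6 CPM in Ctrl IHC, and 1.04, 55.4 and 153 CPM in Exp IHC. The median mutant OHC was thus above the highest control OHC, and the median mutant IHC above the highest control IHC, while the ranges overlapped at the low end.

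Cacna2d2 was 13.2-fold higher in Exp OHC (log2 ratio 3.72, 3.63 to 3.80) and 8.74-fold higher in Exp IHC (3.13, 3.07 to 3.19). The share of cells at 10 CPM or more was 14.0% (5.30 to 27.9) and 75.0% (61.6 to 85.6) in OHCs and 36.8% (21.8 to 54.0) and 92.3% (74.9 to 99.1) in IHCs. With all cells thinned to 5000000 counts these shares were 14.0%, 76.8%, 34.2% and 88.5%. Over the 4 sets of cells the ratio was 2.85 to 4.56 in OHCs and 2.28 to 4.13 in IHCs. Without the cells highest in neuron markers, which were 3 Exp OHCs and 14 Exp IHCs, it was 3.75 and 3.07. The log2 ratio in Ctrl OHC over Ctrl IHC was -1.28, and -1.87 without the cells whose markers went against the label.

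Cacna2d3 (chr14:28904943-29721864, minus strand), a subunit found in auditory neurons and brain, was at 10.3, 58.3, 13.3 and 30.7 CPM. Single cells were split: the medians were 0, 45.3, 0 and 1.01 CPM and the highest cells 116, 262, 130.4 and 143 CPM. Cells at 10 CPM or more were 10 of 43, 36 of 56, 11 of 38 and 11 of 26, so most control cells and most mutant IHCs were under that level and most mutant OHCs above it. The log2 ratio was 2.50 (2.46 to 2.55) in OHCs, between 1.57 and 3.63 over the 4 sets of cells. In IHCs it was 1.20 (1.16 to 1.25), 0.62 in Gm15772-high cells, 0.94 in Xist-positive cells and 0.94 without the cells highest in neuron markers.

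Cacna2d4 (chr6:119236526-119352407, plus strand), the subunit of photoreceptor terminals, did not share that pattern, at 39.5, 29.1, 29.3 and 28.3 CPM. Its log2 ratio was -0.44 (-0.47 to -0.41) in OHCs and -0.05 (-0.09 to -0.01) in IHCs, and it was at 10 CPM or more in 55.8%, 41.1%, 39.5% and 38.5% of cells. The OHC ratio was 0.03 in Y-positive cells, and the IHC ratio -0.84 in Gm15772-low and 0.48 in Gm15772-high cells. Between mutant cell types the ratio was 0.04 with all cells and 1.17 in Y-positive cells. Single cells had medians of 20.1, 1.09, 1.19 and 2.26 CPM and reached 316, 195, 213 and 122 CPM. Cacna2d1, the broadly expressed alpha2delta1, was at 0.0450, 0.437, 1.01 and 2.13 CPM, and 1 cell held 64.9% or more of its counts in each group. Its IHC ratio of 1.07 was -2.31 without each group's highest cell.

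The alpha2delta sum per kilobase was 5.73 and 14.8 CPM per kb in Ctrl and Exp OHC and 5.61 and 14.7 CPM per kb in Ctrl and Exp IHC. In controls Cacna2d4 held most of it, 72.7% in OHCs and 55.0% in IHCs. In Exp OHC Cacna2d3 came first with 45.2%, then Cacna2d2 with 33.8% and Cacna2d4 with 20.8%. In Exp IHC Cacna2d2 came first with 54.6%, then Cacna2d3 with 23.9% and Cacna2d4 with 20.3%. This order was the same with the longest transcript as length.

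Single mutant cells had more alpha2delta genes each. The counts below rest on the same shares of Cacna2d2 and Cacna2d3 as above and are not a separate result. No alpha2delta gene was at 10 CPM or more in 13 of 43 Ctrl OHCs and 10 of 38 Ctrl IHCs, against 5 of 56 Exp OHCs and 1 of 26 Exp IHCs. At least 3 of them were in 1 Ctrl OHC, 14 Exp OHCs, 2 Ctrl IHCs and 3 Exp IHCs. Cacna2d2 and Cacna2d3 were together in 1 Ctrl OHC and 32 Exp OHCs, and in 5 Ctrl IHCs and 10 Exp IHCs. Cells of a group share their animals in a way the labels do not give, so these counts carry no error between animals.

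**Figure D3:**
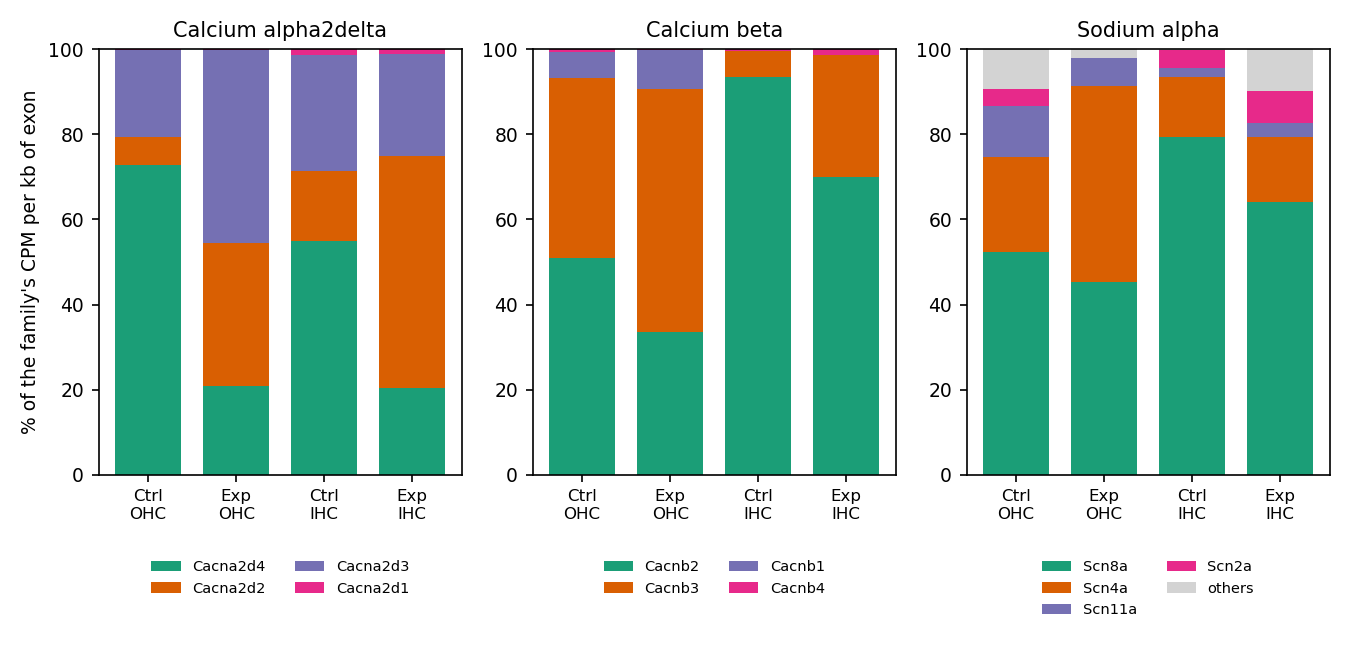
Each bar splits a family's summed CPM per kb of exon (in percent) among its genes, for the 4 groups. Cacna2d4 holds 72.7% and 55.0% of the alpha2delta family in controls and 20.8% and 20.3% in mutants.

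Of the 8 gamma genes, 2 were at 10 CPM or more, and both encode proteins that attach to AMPA-type glutamate receptors. Cacng2 (chr15:77991748-78120028, minus strand), known as stargazin, was an OHC gene: it was at 21.9 CPM in Ctrl OHC and 76.9 CPM in Exp OHC, and at 0.0115 CPM (4 counts) and 0.0356 CPM (13 counts) in Ctrl and Exp IHC. The lowest, median and highest cells were 0, 13.8 and 133 CPM in Ctrl OHC and 2.41, 69.0 and 429 CPM in Exp OHC, and no IHC was above 0.221 CPM. Every Exp OHC thus lay above every IHC, while Ctrl OHCs reached down to 0.

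It was at 10 CPM or more in 65.1% (49.1 to 79.0) of Ctrl OHCs and 98.2% (90.4 to 100.0) of Exp OHCs, and in 0 of 38 and 0 of 26 IHCs, with exact upper limits of 9.25% and 13.2% (7.89% and 11.5% by 3 cells of the total). The log2 ratio of Exp OHC over Ctrl OHC was 1.81 (1.78 to 1.84) and lay between 1.20 and 1.71 over the 4 sets of cells. OHCs over IHCs gave 10.90 (9.54 to 12.77) in controls and 11.07 (10.30 to 11.98) in mutants. Without the cells whose markers went against the label these were 10.92 and 11.12.

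Cacng5 (chr11:107874605-107915055, minus strand) was at 21.0, 45.9, 6.11 and 13.1 CPM. The medians were 0, 2.34, 0 and 0 CPM and the highest cells 129, 288, 107 and 102 CPM, and 27.9%, 44.6%, 7.89% and 19.2% of cells were at 10 CPM or more. The log2 ratio of 1.13 (1.09 to 1.16) in OHCs was 0.40 in Xist-positive and 0.38 in Gm15772-high cells. The ratio of 1.10 (1.02 to 1.17) in IHCs was -0.41 in Y-positive and -0.06 in Gm15772-low cells. Control OHCs over control IHCs gave 1.78, but 0.78 in Y-positive and 0.81 in Gm15772-low cells. In Exp OHC 25 cells had both gamma genes, 30 Cacng2 alone and none Cacng5 alone, against 7, 21 and 5 in Ctrl OHC. Nearly all Exp OHCs had Cacng2, so Cacng5 alone could hardly occur there. Cacng4 was found only in Ctrl IHC at more than 4 counts, where 1 cell of 107 CPM gave all 834 counts (2.39 CPM).

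**Figure D4:**
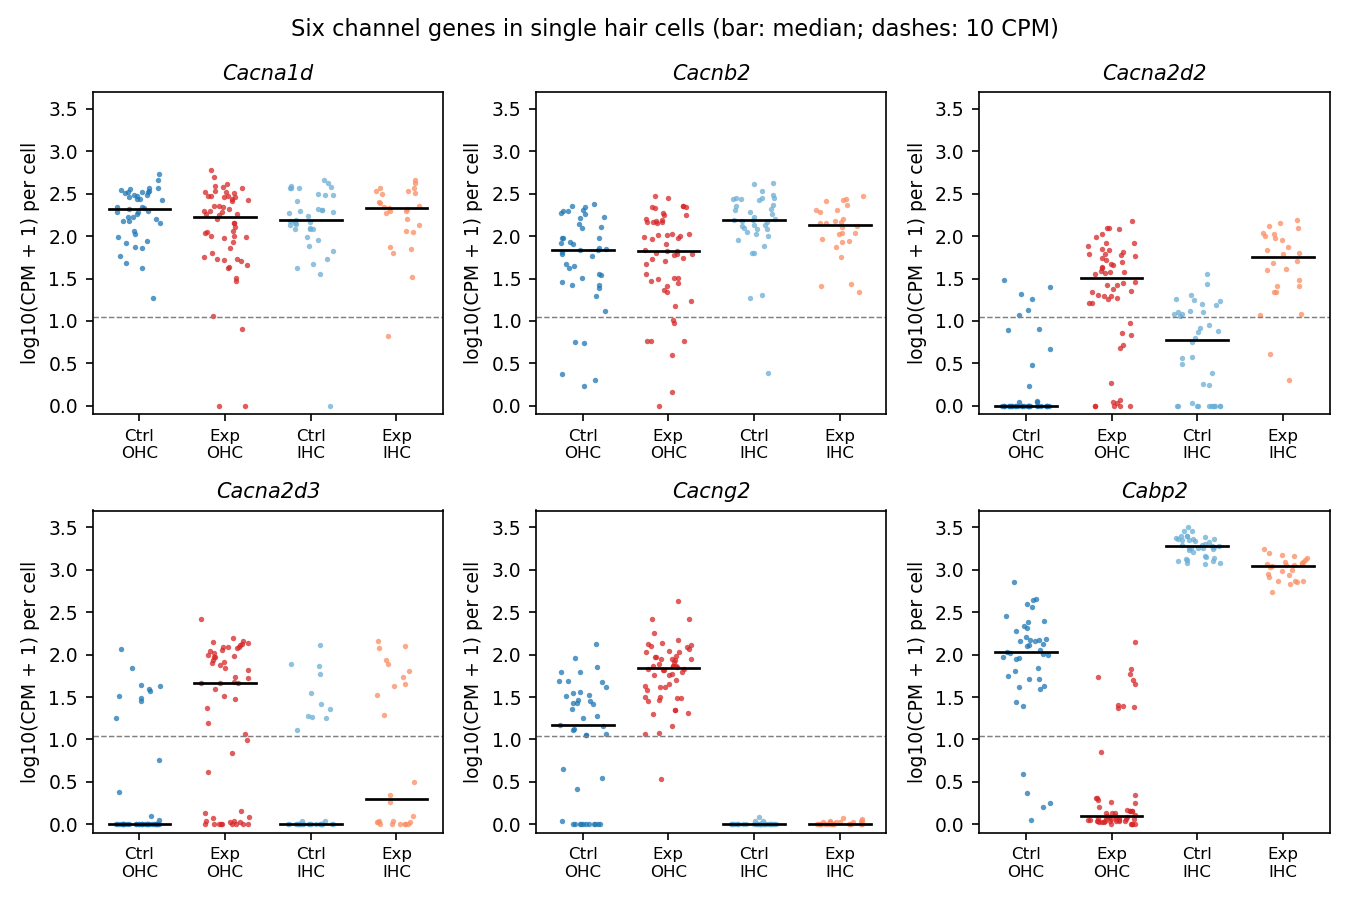
Each point is a cell, as log10(CPM + 1), for 6 members in the 4 groups; bars are medians and the dashed line marks 10 CPM. Cacna1d and Cacnb2 overlap in all groups, Cacna2d2 and Cacna2d3 are higher in mutants, Cacng2 reaches 10 CPM in OHCs and in no IHC, and Cabp2 is lower in most Exp OHCs than in most Ctrl OHCs (medians 107 and 0.252 CPM).

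Among the calcium-binding proteins, Cabp2 differed by cell type and, more in OHCs than in IHCs, by genotype. Cabp2 (chr19:4081578-4087340, plus strand), whose loss causes deafness in mice and people, was at 1937 CPM in Ctrl IHC and 1079 CPM in Exp IHC, and at 145 CPM in Ctrl OHC and 9.24 CPM in Exp OHC. The lowest, median and highest IHCs were 1171, 1924 and 3165 CPM in controls and 545, 1120 and 1772 CPM in mutants. OHCs were at 0.135, 107 and 725 CPM in controls and at 0, 0.252 and 139.8 CPM in mutants. The highest Ctrl OHC was below every Ctrl IHC, and every Exp OHC was below every Exp IHC, whereas the genotypes overlapped within each cell type.

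The fold difference was 15.7 in OHCs (log2 ratio -3.97, -4.01 to -3.93) and 1.79 in IHCs (-0.84, -0.85 to -0.84). Over the 4 sets of cells these were -5.51 to -3.71 and -1.07 to -0.75. The share of OHCs at 10 CPM or more was 88.4% (74.9 to 96.1) in controls and 17.9% (8.91 to 30.4) in mutants, and 88.4% and 17.9% after thinning to 5000000 counts. All IHCs of both genotypes were above that level. Among Exp OHCs, 3 had Cabp2 and prestin at 10 CPM or more, 7 had Cabp2 alone, 20 prestin alone and 26 neither, while 37 of 43 Ctrl OHCs had both. Ctrl OHC over Ctrl IHC gave -3.74, and -3.66 without the cells whose markers went against the label.

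Cabp4 (chr19:4135423-4144033, minus strand), the photoreceptor synapse relative, was at 15.2, 10.7, 21.7 and 22.9 CPM. The medians were 0.156, 0, 10.9 and 6.85 CPM and the highest cells 90.0, 144, 100.1 and 93.8 CPM, and 44.2%, 21.4%, 50.0% and 46.2% of cells were at 10 CPM or more. In OHCs the log2 ratio was -0.50 (-0.55 to -0.45), 0.35 in Y-positive and -0.69 in Xist-positive cells, and in IHCs it was 0.08 (0.04 to 0.13), 0.66 in Y-positive and -0.27 in Xist-positive cells. Exp OHC over Exp IHC gave -1.09, and -0.69 in Y-positive cells. Gpr152, at up to 55.9 CPM, shares 131 exonic bases with it on the opposite strand. No Exp OHC had both Cabp2 and Cabp4: 10 had the first, 12 the other and 34 neither, against 17 with both and 3 with neither in Ctrl OHC. With so few Exp OHCs holding either gene, few would hold both by the shares alone, so their absence says little.

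Cabp1, which binds calcium channels in brain, was at 0.708, 0.360, 5.99 and 1.23 CPM, with a log2 ratio of -2.28 (-2.43 to -2.13) in IHCs. Cells at 10 CPM or more were 7 of 38 Ctrl IHCs and 2 of 26 Exp IHCs. A cell with no CaBP gene at 10 CPM or more was seen 3 times in Ctrl OHC, 34 times in Exp OHC and never in IHCs.

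Sodium pore genes were at low levels, and Scn8a, the NaV1.6 pore of axon initial segments and nodes, was found in most groups at the highest level per kilobase. Scn8a (chr15:100869858-101045938, plus strand) was at 24.3, 45.0, 20.4 and 41.0 CPM. The medians were 14.5, 9.09, 4.84 and 29.1 CPM and the highest cells 94.5, 328, 89.7 and 136 CPM, so in Exp OHC a higher sum came with a lower median cell. Cells at 10 CPM or more made up 55.8%, 46.4%, 44.7% and 57.7%. In OHCs the log2 ratio was 0.89 (0.86 to 0.92), 1.25 in Y-positive and 1.21 in Gm15772-low cells. In IHCs it was 1.01 (0.97 to 1.05), just past the limit, 0.92 with TMM and 0.95 with DESeq2 scaling, 0.75 in Xist-positive and 0.51 in Gm15772-high cells, and 0.73 without the cells highest in neuron markers.

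Scn4a (chr11:106318592-106353288, minus strand), the NaV1.4 pore of skeletal muscle, was at 4.59, 20.3, 1.60 and 4.41 CPM. It was at 10 CPM or more in 22 of 56 Exp OHCs, against 3 of 43 in controls of that type and 2 of 38 control and 3 of 26 mutant IHCs. The medians were 0, 0.128, 0 and 0 CPM and the highest cells 105, 205, 29.6 and 56.3 CPM. In OHCs the log2 ratio was 2.15 (2.08 to 2.22), between 1.27 and 2.56 over the 4 sets of cells. In IHCs it was 1.46 (1.32 to 1.60), 0.52 in Y-positive and 0.40 in Gm15772-low cells, and -0.31 without the cells highest in neuron markers. Ctrl OHC over Ctrl IHC gave 1.52, and 0.73 in Y-positive as in Gm15772-low cells. The 4 muscle genes looked at summed to 1.399, 1.03, 1.98 and 0.0219 CPM, with Ckm at 0 in all groups.

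Per kilobase, Scn8a held 52.5%, 45.4%, 79.4% and 64.0% of the sodium alpha family, and Scn4a 22.2%, 45.9%, 14.0% and 15.4%. In Exp OHC Scn8a came first, with 52.0% against 40.7%, when the longest transcript was used as length. Scn2a and Scn11a were genes of few cells. Scn2a, a brain pore, was at 1.502, 0.0694, 0.898 and 3.84 CPM, of which 1 cell gave 92.0% or more in each group. Scn11a, the NaV1.9 pore of pain-sensing neurons, was at 2.09, 2.49, 0.204 and 0.792 CPM, and 4 of 56 Exp OHCs reached 10 CPM.

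Scn3b (chr9:40269217-40291618, plus strand), the beta3 subunit, was an IHC gene in controls, at 15.0 CPM in Ctrl OHC and 82.3 CPM in Ctrl IHC, a log2 ratio of -2.46 (-2.50 to -2.42). In mutants it was at 28.6 and 47.7 CPM, a ratio of -0.74. The medians were 0.111, 8.57, 74.5 and 26.2 CPM, and the highest cells 107, 197, 294 and 193 CPM. Cells at 10 CPM or more were 25.6% (13.5 to 41.2), 48.2% (34.7 to 62.0), 84.2% (68.7 to 94.0) and 53.8% (33.4 to 73.4). The genotype ratio was 0.93 (0.89 to 0.97) in OHCs and -0.79 (-0.81 to -0.76) in IHCs, and neither held its direction over the sets of cells: the OHC ratio was 3.58 in Gm15772-low and -0.72 in Gm15772-high cells, and the IHC ratio 0.37 and -1.74.

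Scn2b, which binds sodium pores by a disulfide bond, had 2.03 and 0.176 CPM in Ctrl and Exp OHC and 0 counts in IHCs, with 87.3% and 96.9% of the counts in 1 cell. Scn4b was at 2.30 CPM in Exp IHC, all from 1 cell, and had at most 1 count in the other groups.

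The remaining calcium pores were also genes of few cells. Cacna1a, the P/Q-type pore, was at 3.40, 5.85, 2.71 and 2.65 CPM, with 4, 8, 5 and 2 cells at 10 CPM or more and 28.2%, 31.0%, 20.3% and 71.8% of the counts from 1 cell. Its log2 ratio was 0.78 in OHCs, 0.72 with each group's highest cell left out and 0.45 to 3.38 over the 4 sets. In IHCs it was -0.03, and -1.51 without the highest cells. Cacna1c, the cardiac L-type pore, was at 4.65, 2.97, 1.34 and 3.19 CPM, with 7, 3, 2 and 3 such cells. Cacna1e, the R-type pore, was at 0.538, 2.52, 1.18 and 0.00274 CPM, with 1, 3, 1 and 0 such cells. Cacna1s, the pore of skeletal muscle, was at 1.28 CPM in Ctrl IHC, of which 1 cell gave 99.8%, and at 2 counts or fewer elsewhere. In Cacna1c 1 cell gave 34.4% or more of each group's counts, and in Cacna1e 49.1% or more.

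Partner proteins of the channels were compared by the same rule. Of 24 genes whose products bind or place calcium channels, 20 could be compared in OHCs, with 3 lower in mutants (Akap5, Otof, Ush1c) and 3 higher (Rims2, Stac, Stac3) and a median log2 ratio of 0.03, against 13.1% lower, 18.4% higher and a median of 0.06 over all genes. In IHCs 19 could be compared, with 1 lower (Calm2) and 3 higher (among them Bsn and Stac), again with a median of 0.03, against 11.7%, 18.8% and 0.11. All 4 shares of this list were near or below those of all genes. Stac, an adaptor that modulates L-type channels, had 11.0 and 59.2 CPM in Ctrl and Exp OHC and 10.2 and 75.1 CPM in Ctrl and Exp IHC. Rims2, a scaffold that tethers calcium channels at the ribbon, was at 47.1 and 239 CPM in OHCs and at 370.0 and 309 CPM in IHCs. Otoferlin (Otof), the calcium sensor of release, was at 1151 and 390 CPM in OHCs and at 2547 and 1696 CPM in IHCs. Ush1c, which encodes harmonin, a bundle and synapse scaffold that binds CaV1.3, was at 230.2 and 94.4 CPM in OHCs and at 139.5 and 147 CPM in IHCs.

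Of 18 partners of sodium channels, 13 could be compared in each cell type, with none lower and 5 higher in mutant OHCs (Ank2, Cntn1, Fgf11, Nfasc, Sptbn1; median 0.90) and 3 higher in mutant IHCs (Cntn1, Sptbn1, Sptbn4; median 0.25). The shares of all genes higher were 18.4% and 18.8%, and those lower 13.1% and 11.7%, with medians of 0.06 and 0.11. The IHC count of higher genes is thus close to the share of all genes. Sptbn1, a spectrin of the membrane skeleton, had 147 and 532 CPM in Ctrl and Exp OHC and 195 and 480.2 CPM in Ctrl and Exp IHC. Nfasc, an adhesion protein of the axon initial segment, was at 17.9 and 58.1 CPM in OHCs and at 62.9 and 74.7 CPM in IHCs, and Cntn1, its relative contactin, at 1.31 and 46.1 CPM in OHCs. The sodium leak channel gene Nalcn was under 2.5 CPM in all groups. Its partner Fam155a was an IHC gene, at 1.96 and 1.79 CPM in OHCs and at 74.2 and 93.7 CPM in IHCs.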

How the data were processed

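The authors deposited raw read counts per gene for 163 single cells, 1 library each, made with a Smart-Seq kit per the labels' protocols, which name no molecular identifiers. Reads were processed with HISAT2 2.2.1, SAMtools and featureCounts 2.0.1 on mm10, per the submitters' processing notes; which annotation release and strand setting were used, and how reads shared by genes were counted, is not given in the sources used here. Symbols, coordinates and exon lengths came from GENCODE for GRCm38 (mm10), which matched 55034 of 55291 identifiers (99.5%). Counts were summed over the cells of each label group and divided by the group total (399570786, 720407678, 348518300 and 364755085 counts in the order of the report). Levels between genes were compared per kilobase of merged exons. Log2 ratios have exact conditional binomial 95% intervals and shares of cells Clopper-Pearson 95% intervals. The ratio intervals take reads as independent molecules, which they are not, so they can be too narrow even for counting error. The share intervals take the cells of a group as independent draws, although no label names an animal. Neither covers error between animals. A group sum of 0 was set to a floor of 3 counts. The 4 comparisons used a filter of 1 CPM and a 2-fold limit.

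Cells were picked by hand and no doublet caller was run. No 2 cells of a group had counts as close as a repeated library would: over 2000 genes, chi-squared divided by its degrees of freedom was at least 274.9. Every member at 1 CPM or more in a group is named, and those at 10 CPM or more in full, except that some genes are not reported here by name; they stay in the counts. The members, lists and alternatives were chosen with earlier results of these data known. Alternatives covered scaling (edgeR 4.0.16 TMM, DESeq2 1.42.0 size factors, with R 4.3.3), filters, and sets of cells. The intervals were run on simulated counts drawn by the counting model that they assume. That checks the arithmetic and not how well the intervals suit these data. Python 3.11.15, numpy 2.4.6, pandas 2.3.3 and scipy 1.17.1 were used.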

Additional observations from a re-analysis of the deposited data

Results flagged for a closer look

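The genotype ratio of Cacna1b was past 2-fold in opposite directions in the cell types, with a log2 ratio of -1.36 in OHCs and 2.92 in IHCs; the difference was not tested. The OHC ratio was -0.46 without the cells whose markers went against the label and -2.37 with each group's highest cell left out, and 1 cell gave 67.4% of the Exp OHC counts. The IHC ratio was 2.38 and 2.70 under the same changes.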

How the results depend on the processing

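No paired analysis was possible because no label numbers or names the animals. The ratio intervals cover read counting at most, and the share intervals take cells as independent draws. No error between animals can be given. The numbers of members higher and lower by over 2-fold moved by over 1.5 times as follows, always as higher or lower in the first group named. In Exp OHC against Ctrl OHC (8 higher, 4 lower), 7 were lower with no filter and 1 with a filter at 10 CPM, and 5 were higher in Gm15772-high cells. In Exp IHC against Ctrl IHC (13 and 2), 4 were lower with no filter, 0 with the filter at 10 CPM, 4 in Xist-positive cells and 6 in Gm15772-high cells, and 5 were higher with the stricter filter, 7 when each group's highest cell was left out, 7 in Y-positive cells, 6 in Gm15772-low cells and 6 without the cells highest in neuron transcripts. In Ctrl OHC against Ctrl IHC (10 and 6), a filter at 10 CPM left 3 lower and 3 higher, and 6 were higher without the highest cells and 6 in Gm15772-high cells. In Exp OHC against Exp IHC (8 and 8), 3 were lower and 4 higher at 10 CPM, and 4 were lower without the highest cells and 2 in Y-positive as in Gm15772-low cells, which are the same cells. TMM factors, DESeq2 size factors, the mean of single cells and leaving out cells against the label moved no count that far. The members' median log2 ratio also moved in 1 comparison with the filter at 10 CPM and in 1 with no filter. It moved in 1 comparison each in Xist-positive cells, without the highest cells and without the cells highest in neuron transcripts.

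These called ratios changed sign; the cause was not tested. In OHCs (Exp against Ctrl), Cacna1e was -7.86 in Gm15772-high cells and Scn2b 2.94 in Xist-positive cells. In IHCs, Cacna1c was -0.30 (Xist), -1.11 (high Gm15772) and -0.98 (without neuron-rich cells), and Cacna2d1 -2.31 (without the highest cells), -5.56 (Y-linked), -5.73 (low Gm15772) and -2.81 (without neuron-rich cells). Also in IHCs, Cacng5 was -0.41 (Y-linked) and -0.06 (low Gm15772), Scn2a -4.97 (Y-linked) and Scn4a -0.31 (without neuron-rich cells). Between mutant types, Cacna2d1 was 0.83 (without the highest cells), 3.72 (Y-linked and low Gm15772) and 1.69 (without neuron-rich cells).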
